A study of Mus musculus with 176 samples.

Results

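The mouse T cell receptor beta locus on chromosome 6 holds a row of variable (V) segments, and the expression of these Trbv segments was followed cell by cell. All 35 gene names beginning with Trbv were taken, of 53546 names in the count table. In each cell the segment with the most reads was called the leading segment where it held at least 10 reads. The study used female C57BL/6J mice immunized against P6, a peptide of apolipoprotein B, first with complete and later with incomplete Freund's adjuvant. It names 1 mouse as the source of the tetramer-binding cells and no other animal for the rest. Antigen-experienced CD4 T cells (TCRβ+ CD4+ CD44hi, with a further marker in the gate) of draining lymph nodes were sorted singly, 176 in all, of which 32 bound the P6:I-Ab tetramer (P6+) and the rest did not (P6-). As described, both groups shared the strain, the immunization and the gate, and differed in tetramer binding. Each cell was sequenced by Smart-Seq2, a full-length protocol without molecular identifiers. Quality filters kept 161 cells, among them all 32 P6+ cells, and left out 15 P6- cells. The study's filter on the mapping rate was not applied, and the P6- group here is larger than the one the study kept. A leading segment was called in 130 cells.

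During T cell development a V segment is joined to a diversity (D) segment and a joining (J) segment, and splicing then links the joined exon to 1 of 2 constant segments, Trbc1 or Trbc2. A cell normally expresses 1 productive beta chain, because a productive join on 1 chromosome restrains joining on the other, although out-of-frame joins on the second chromosome can still be transcribed. The daughters of a T cell inherit its join, so cells of 1 clone share the V, D and J segments and the bases between them. Joins to segments of the first D and J cluster can be spliced to Trbc1, whereas joins to Trbj2 segments have only Trbc2 downstream.

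Group comparisons describe 2 sets of cells, with no animal named beyond the 1 mouse of the P6+ cells. Cells are not replicates of a condition, so no test between groups was made. Shares of cells are given with exact (Clopper-Pearson) 95% binomial intervals and sums of reads with exact Poisson intervals, and both cover counting error only: PCR copies of 1 molecule were counted as separate reads. A further limit applies to each comparison: all 32 P6+ cells carried the same cell-name prefix, which only 11 of the passing P6- cells shared, so that prefix and tetramer group cannot be told apart except in those 11 cells. P6+ cells held 956280 to 3332191 reads (median 1731608) and passing P6- cells 522188 to 3401372 (median 1500457). Other measures of quality differed between the groups too, with a median of 4396 detected genes in P6+ and 3432 in P6- cells, and a mitochondrial share of 0.505 to 2.82% (median 1.29%) in P6+ and 0.893 to 9.46% (median 3.56%) in P6- cells. Their part in the results was not tested beyond the thinning and the stricter gene minimum.

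Transcripts of the gate were found in part of the cells. Cd4 itself reached 10 reads in 16 of 32 P6+ cells (50%) and 39 P6- cells (30.2%), and Cd3e in 28 P6+ (87.5%) and 82 P6- cells (63.6%). Cd44, added after the data were seen, did so in 11 P6+ (34.4%) and 30 P6- cells (23.3%). At least 1 of 7 CD4 T cell markers (Cd3e, Cd3d, Cd3g, Cd4, Lck, Trbc1 and Trbc2) reached 10 reads in 32 of 32 P6+ cells and in all but 3 P6- cells, with summed levels of 1959 to 9116 cpm (counts per 1000000 reads) in P6+ and 11.5 to 14417 cpm in P6- cells. No NK cell or myeloid marker reached 10 reads in a cell, nor did Trdc of gamma-delta T cells. The B cell receptor gene Cd79b was present in 2 P6+ cells, at 1828 and 905 reads, while Cd79a and Ms4a1 stayed below 10 reads in every cell, and these 3 B cell markers summed to 0 to 580 cpm in P6+ and 0 to 1.28 cpm in P6- cells. Cd8b1 reached 10 reads in 2 P6- cells, with up to 2315 reads, while Cd8a stayed below 10 reads. The main values below were recomputed without the 2 P6+ cells, but not without the 2 P6- cells.

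The germline ends of the segments that led P6+ cells are shown because they are where a V segment meets the D and J segments. All lie on chromosome 6 of GRCm38 and on the plus strand, and are the last 30 bases of the annotated V segment. Capitals mark the TGT codon of the conserved cysteine at which the variable junction begins.
Trbv13-2 (chr6:41121803-41121832): catcagtgtacttcTGTgccagcggtgatg
Trbv13-1 (chr6:41116439-41116468): catctttgtacttcTGTgccagcagtgatg
Trbv12-2 (chr6:41119335-41119364): tctgccgtgtacttcTGTgccagctctctc
Trbv2 (chr6:41047966-41047995): ggccacatacttcTGTgccagcagccaaga
Trbv3 (chr6:41048799-41048828): gtgtacttcTGTgccagcagcttagccaca
Trbv29 (chr6:41271852-41271881): atctgtgtacttcTGTgctagcagtttatc

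Trbv13-2 (ENSMUSG00000076469) spans chr6:41121396-41121832, and its nearest upstream neighbour, Trbv12-2 (ENSMUSG00000094525, chr6:41118851-41119364), ends 2031 bases before it. Close copies limit how reads can be assigned. Over their last 290 bases, Trbv13-2 was 91.7% identical to Trbv13-3 and 88.6% identical to Trbv13-1, and Trbv12-1 was 89% identical to Trbv12-2, whereas the median over all 595 pairs of segments was 53.1%. The longest run shared by Trbv13-2 and Trbv13-3 was 50 bases, short against reads of full-length cDNA, but a split of reads between the copies remains possible. Trbv12-2 and Trbv13-2, which often occurred in the same cell, are not close copies of each other.

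The study also assembled the joined beta chains, and its listed junctions show what a Trbv13-2 join looks like in these cells. The first 5 bases of each junction shown belong to the V segment and the last 5 to the J segment. The Trbv13-2 junction listed for P6+ cells is given first, followed by the 4 that join the same V and J segments, Trbv13-2 and Trbj2-4, in P6- cells. Capitals mark the longest run found in a germline D segment, Trbd1 (gggacagggggc, chr6:41533201-41533212) or Trbd2 (gggactgggggggc, chr6:41542163-41542176).
P6+ Trbv13-2 to Trbj2-4: ggtGACAGGGGGCgacaaaa
P6- junction A: ggtgacaACTGGGGGGGtcaa
P6- junction B: ccagCAGGGGacgtcaa
P6- junction C: gtgatccGGGACAGGGGaatcaaa
P6- junction D: tGAtgcttctagtca

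The P6+ junction carries a run of 10 bases of Trbd1, of which the first bases also continue the V segment. The 4 P6- junctions differ from it by 7 to 13 base changes, insertions or deletions, so that the same V and J names stood for different joins. In length they range from 15 to 24 bases against 20 for the P6+ junction. Their D runs hold 2 to 10 bases, and runs as short as the lowest of these match a D segment readily.

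A leading Trbv segment was called in 27 of 32 P6+ cells (84.4%, 67.2 to 94.7%) and in 79.8% of P6- cells (71.9 to 86.4%), of which 26 stayed uncalled. The intervals of the groups overlapped widely. Called and uncalled cells were separated, as the lowest leading segment held 11 reads and the highest segment of an uncalled cell 5. Among the 5635 values of 35 segments in 161 cells, 5188 were 0, 267 lay between 1 and 9 reads and 180 reached 10 reads. Most cells thus showed 1 tall segment over an almost empty row, as the map of reads shows.

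**Figure D1:**
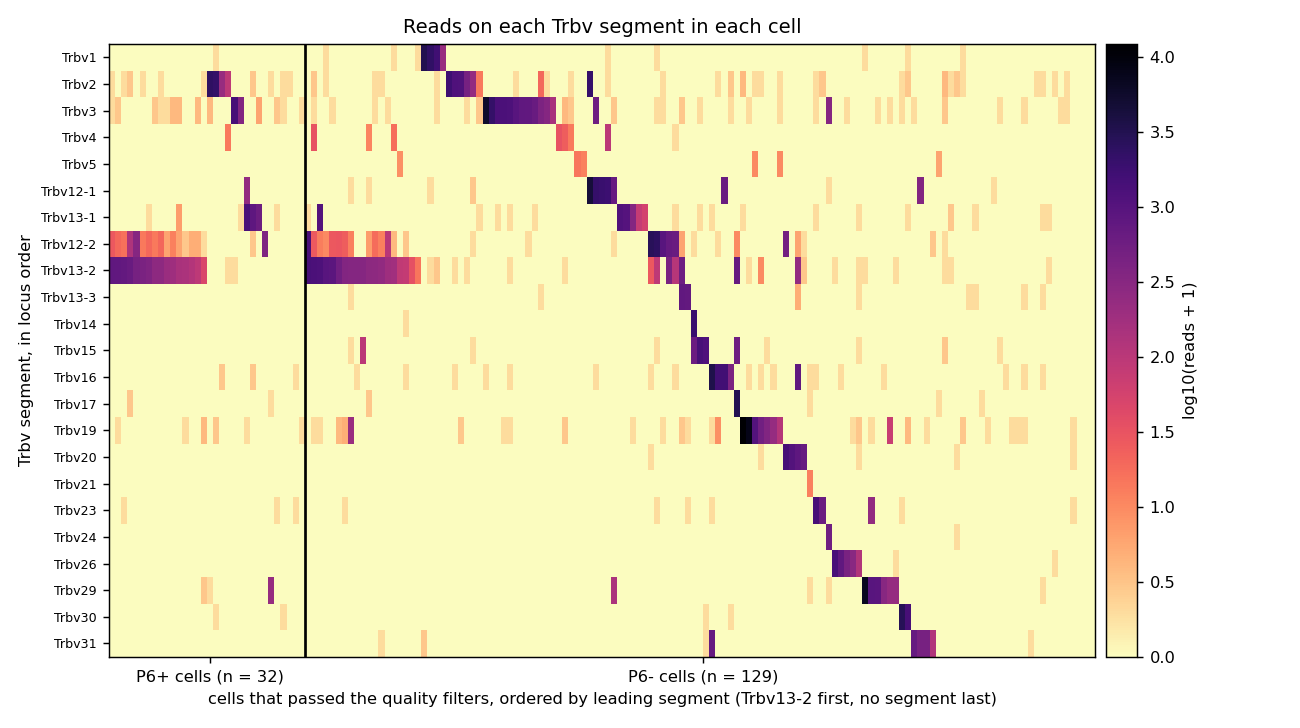
Reads on each Trbv segment (rows, in locus order, only segments that reached 10 reads in a cell) in each passing cell (columns), as log10(reads + 1), with the 32 P6+ cells left of the line and the passing P6- cells right of it. In P6+ cells 16 columns have their darkest entry on Trbv13-2, each with a paler entry on Trbv12-2, whereas the P6- cells spread along the diagonal over 23 segments.

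Trbv13-2 led 16 of the 27 called P6+ cells (59.3%, 38.8 to 77.6%) and 19 of the called P6- cells (18.4%, 11.5 to 27.3%), and these intervals did not overlap. With at least 4000 genes per cell the counts were 12 of 18 P6+ (41 to 86.7%) and 6 of 24 P6- cells (9.77 to 46.7%). Those intervals did overlap. In both groups it was the most frequent leading segment. Its share in P6- cells varied across cell-name prefixes, although the intervals of all prefixes overlapped. It led 1 of 11, 4 of 20, 4 of 18 and 3 of 11 called P6- cells of prefixes 2 to 5, 0 of 8 and 0 of 10 of prefixes 6 and 7, and 4 of 15 and 3 of 10 of prefixes 8 and 9. Within prefix 6, the prefix of the P6+ cells, the contrast was therefore 16 of 27 P6+ against 0 of 8 P6- cells (0 to 36.9%).

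The counts of Trbv13-2 in P6+ cells fell into separate ranges. In the 16 cells that it led it held 48 reads at the lowest, 267 at the median and 780 at the highest. In the other 16 P6+ cells it held 1 read in 2 cells and 0 in the rest. In the 19 P6- cells that it led it held 14, 331 and 1346 reads at the lowest, median and highest. Per kilobase of exon, the median level was 483 cpm in these P6+ and 577 cpm in these P6- cells. Leaving out the 2 P6+ cells with Cd79b reads gave 15 of 25 (60%).

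The other 11 called P6+ cells were led by 5 segments. Trbv2 led 4 cells (14.8%, 4.19 to 33.7%) with 93, 220, 2099 and 2354 reads, Trbv13-1 led 3 (11.1%, 2.35 to 29.2%) with 593, 829 and 1298 reads, and Trbv3 led 2 (7.41%, 0.910 to 24.3%) with 350 and 1416 reads. Trbv12-2 led 1 cell with 388 reads, and Trbv29 led 1 cell with 225 reads. The Trbv12-2 cell was 1 of the 2 P6+ cells with Cd79b reads. Each of these 5 segments had a share in P6- cells whose interval overlapped that in P6+ cells. The study's list of productive beta chains also holds P6+ junctions of Trbv4, Trbv16 and Trbv19. These segments led no P6+ cell, with at most 13, 2 and 3 reads in a P6+ cell. The calls by reads thus do not match that list in full.

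P6- cells were led by 23 different segments. After Trbv13-2 came Trbv3 with 12 cells (11.7%, 6.17 to 19.5%), Trbv19 with 7 (6.80%, 2.78 to 13.5%), Trbv2 and Trbv29 with 6 each (5.83%, 2.17 to 12.2%), and Trbv12-1, Trbv12-2, Trbv13-1 and Trbv26 with 5 each (4.85%, 1.59 to 11%). The neighbouring ranks in this order had overlapping intervals. Each of the 6 segments that led a P6+ cell also led P6- cells, which is 100% of the P6+ list and 26.1% of the P6- list, and these 6 led 53 of the called P6- cells (51.5%). Trbv19, which led 7 P6- cells, led 0 of 27 P6+ cells (0 to 12.8%), an interval that includes its share in P6- cells. The study nevertheless lists a productive P6+ junction of Trbv19.

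**Figure D2:**
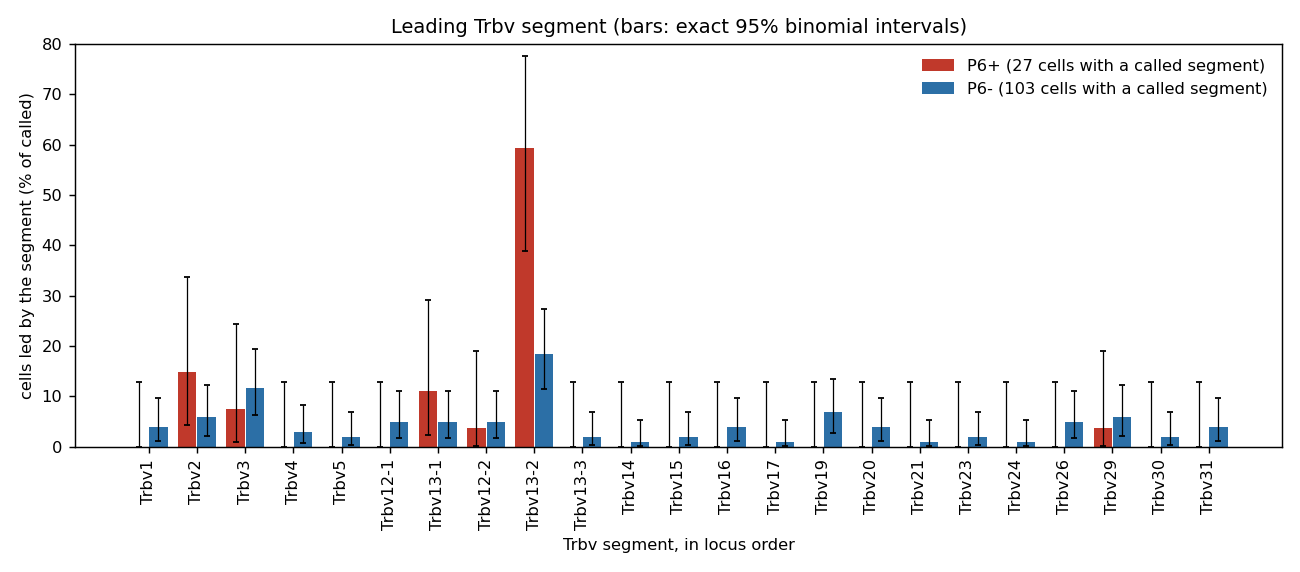
Share of called cells led by each Trbv segment (percent of the called P6+ or P6- cells, bars) in locus order, with exact 95% binomial intervals. Trbv13-2 stands at 59.3% of P6+ and 18.4% of P6- cells, and the intervals of every other segment overlap between the groups.

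The whole set of 35 was accounted for by the annotation. All 22 segments annotated as genes led at least 1 passing cell, and all of the segments that led none were annotated as pseudogenes. Of the 13 pseudogenes, 9 had 0 reads in every passing cell and Trbv12-3, Trbv27 and Trbv28 reached at most 6 reads. The exception was Trbv24, annotated as a pseudogene, which led 1 P6- cell with 540 reads beside 329 reads of Trbv3. Some segments can be undercounted, because reads that fall in more than 1 gene are not counted. Of the exon bases of Trbv4 75.1%, of Trbv5 79.3% and of Trbv8 100% lie in another annotated gene on the same strand. Trbv4 led 3 P6- cells with 13 to 31 reads and Trbv5 led 2 with 11 and 14 reads. Outside these overlaps, Trbv21 led 1 P6- cell with 11 reads.

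To compare how concentrated usage was without naming a segment, all pairs of called cells within a group were formed. In P6+ cells 130 of 351 pairs (37%) had the same leading segment, against 360 of 5253 pairs (6.85%) in P6- cells and 2 of 28 pairs (7.14%) in the P6- cells with the prefix of the P6+ cells. Without the cells led by Trbv13-2 the shares were 18.2% of pairs of the 11 other P6+ cells and 5.42% of pairs of the 84 other P6- cells. Pairs share cells, so no interval is given.

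The median level of the leading segment was lower in P6+ cells. Leading segments held 48, 377 and 2354 reads at the lowest, median and highest in P6+ and 11, 706 and 12178 reads in P6- cells, and the ranges overlapped. Segments differed in level even per kilobase of exon. In P6+ cells the median over the led cells was 1574 cpm for Trbv3, 1297 for Trbv13-1, 918 for Trbv2, 605 for Trbv12-2, 483 for Trbv13-2 and 373 for Trbv29. The same measure in P6- cells was 1278 cpm for Trbv3, 1040 for Trbv13-1, 773 for Trbv2, 2188 for Trbv12-2, 577 for Trbv13-2 and 1453 for Trbv29. Trbv3, Trbv13-1, Trbv2 and Trbv13-2 stood in the same order in both groups, whereas Trbv12-2 and Trbv29, each with 1 P6+ cell, did not.

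Summed over cells, the 35 segments held 277 cpm in P6+ (273 to 282) and 658 cpm in P6- cells (655 to 662), and 436 cpm in the P6- cells of the same prefix. The share of cells with a called segment, given above, was not lower in P6+ cells, while the median over cells of the summed Trbv level was 160 cpm in P6+ and 363 cpm in P6- cells. Trbv13-2 took 34.3% of the Trbv reads of P6+ and 8.30% of those of P6- cells. The largest P6- share was that of Trbv19 with 17%, of which most came from 1 cell with 12178 reads. A single cell held 14.3% of all Trbv reads in P6+ and 9.08% in P6- cells.

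The summed levels were set against each other as log2 ratios of P6+ over P6- cpm with a pseudocount of 1 cpm, for the genes with at least 1 cpm over both groups. Of 20 Trbv segments that passed this minimum, 2 were higher by at least 1 on the log2 scale, against 21.1% of all 11544 genes, and 17 were lower by at least 1, against 35% of all genes. The median log2 ratio of the 20 segments was -3.53, and that of all genes was -0.25. A segment that led no cell of the smaller P6+ group has a low P6+ sum by construction. The 15 segments below the minimum included Trbv4, Trbv5 and Trbv21.

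The 2 higher segments were Trbv13-1 (46 against 18 cpm, log2 ratio 1.30) and Trbv2 (80.5 against 33.6 cpm, 1.23). Each call rested on 1 cell. Without the P6+ cell that held most of its reads, Trbv13-1 fell to 25 cpm (log2 ratio 0.45) and Trbv2 to 42.8 cpm (0.34). Against the P6- cells of the same prefix, where 52.7% of all genes were higher and 20.5% lower by at least 1, the ratio of Trbv13-1 turned to -0.75 (78.2 cpm in those P6- cells) and that of Trbv2 was 6.09.

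Trbv13-2 was at 95.2 cpm in P6+ (92.7 to 97.7) and 54.7 cpm in P6- cells (53.6 to 55.7), a log2 ratio of 0.79 that stayed below 1. Against the P6- cells of the same prefix, which held 4 reads of Trbv13-2 in all, its ratio was 6.26. Without the cell that held most of its reads the ratio was 0.66 (P6+ cell left out) or 0.97 (P6- cell left out). Among the lower segments, Trbv3 was at 30.2 against 80.6 cpm and Trbv12-2 at 16.8 against 46.8 cpm. The P6- cells of the same prefix held Trbv3 at a higher level than P6+ cells (log2 ratio -1.71) and 0 reads of Trbv12-2 and of Trbv29, so that the direction of these 2 lower segments turned there. Against those cells Trbv13-3, Trbv14, Trbv16, Trbv17, Trbv19, Trbv20, Trbv23, Trbv24 and Trbv30 had ratios of -0.04 to 0.07. Trbv1, Trbv12-1, Trbv15, Trbv26 and Trbv31 stayed lower, as did Trbv3. Without the P6+ cell that held most of its reads, Trbv3 fell to 6.49 cpm in P6+ cells (log2 ratio -3.44) and Trbv12-2 to 10.5 cpm (-2.05). Single cells weighed on the lower segments too: with the P6- cell that held most reads of each segment left out, 12 of the 17 were still lower by at least 1, and Trbv3 (-0.80), Trbv12-2 (-0.97), Trbv14, Trbv17 and Trbv24 were not. Of the 20 segments, 7 had 0 reads in P6+ cells, and taken against 3 reads over the group these were at least 52.5-fold (Trbv24) to 386-fold (Trbv20) lower. Of the 541 Trbv24 reads of P6- cells 540 came from 1 cell, and of the 1879 Trbv14 reads 1878, and without that cell neither segment had a bound. For the other 5 the bounds without the top cell were 72.6-fold (Trbv13-3) to 251-fold (Trbv20). The P6- cells of the same prefix also held 0 reads of Trbv13-3, Trbv14, Trbv20 and Trbv24, so there was no bound against those cells.

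How many segments a cell held was counted at the same minimum of 10 reads. Of P6+ cells 5 had no segment, 15 had 1 and 12 had 2, and none had 3. Of P6- cells 26 had none, 70 had 1, 28 had 2 and 5 had 3. A cell thus held at least 2 segments in 12 of 32 P6+ (37.5%, 21.1 to 56.3%) and 33 P6- cells (25.6%, 18.3 to 34%), with overlapping intervals. In the P6- cells of the same prefix it was 1 of 11 (9.09%, 0.230 to 41.3%), an interval that overlapped both. The order of the groups depended on how small a second segment could be and still be counted. With every cell thinned to 500000 reads the shares were 9.38% of P6+ (3 of 32) and 19.4% of P6- cells (25 cells), and at full depth with a minimum of 20 reads they were 12.5% and 21.7%.

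The count of second segments was then split by the leading segment. At least 2 segments were present in 10 of 16 P6+ (62.5%, 35.4 to 84.8%) and 13 of 19 P6- cells (68.4%, 43.4 to 87.4%) led by Trbv13-2. Among cells led by another segment the counts were 2 of 11 P6+ (18.2%, 2.28 to 51.8%) and 20 of 84 P6- cells (23.8%, 15.2 to 34.3%). In P6- cells the intervals of Trbv13-2-led and other cells did not overlap. In P6+ cells they did.

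The second segment beside Trbv13-2 in P6+ cells was its upstream neighbour. All 10 such P6+ cells held Trbv12-2 second, and 1 further P6+ cell held Trbv13-1 with its own upstream neighbour Trbv12-1 (1298 and 242 reads). The last P6+ cell held Trbv2 with Trbv4 (93 and 13 reads). The second segment thus lay next upstream of the leading one in 11 of 12 P6+ cells with at least 2 segments (91.7%, 61.5 to 99.8%) and in 8 of 33 P6- cells (24.2%, 11.1 to 42.3%). In P6- cells 5 more had the upstream neighbour as the leading segment, and in 20 of 33 (60.6%, 42.1 to 77.1%) the second segment was not a neighbour of the leading one. Of these 20, 3 were led by Trbv13-2 and held its neighbour Trbv12-2 as a further segment (11, 12 and 26 reads), so that Trbv12-2 reached 10 reads in 10 of 16 P6+ and 10 of 19 P6- cells led by Trbv13-2.

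Reads of Trbv12-2 beside Trbv13-2 were few but present in each P6+ cell. All 16 P6+ cells led by Trbv13-2 had at least 1 read of Trbv12-2, with 1, 13 and 321 reads at the lowest, median and highest, a median of 3.45% of the Trbv13-2 reads. Of the 19 P6- cells led by Trbv13-2, 14 had such a read, with 0, 11 and 1255 reads. In cells led by neither segment a Trbv12-2 read occurred in 1 of 15 P6+ (6.67%, 0.169 to 31.9%) and 12 P6- cells (11.4%, 6.05 to 19.1%). Reads of Trbv12-2 thus occurred in a larger share of the cells led by Trbv13-2 than of the cells led by neither segment.

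The balance of the leading and second segment was compared next. The second segment reached at least 20% of the leading one in 1 of 12 P6+ (8.33%, 0.211 to 38.5%) and 19 of 33 P6- cells (57.6%, 39.2 to 74.5%), with intervals that lay just apart. This rested on the limit of 20%, since another 2 P6+ cells stood at 19.5% and 18.6%. At a limit of 15% the counts were 3 of 12 P6+ (25%, 5.49 to 57.2%) and 21 of 33 P6- cells (63.6%, 45.1 to 79.6%), and the intervals overlapped, as they did at 10% and 30% and without the 2 P6+ cells with Cd79b reads (1 of 11, 0.230 to 41.3%). Among cells with Trbv13-2 leading and Trbv12-2 second, 1 of 10 P6+ (0.253 to 44.5%) and 2 of 7 P6- cells (3.67 to 71%) reached 20%. The P6+ cell was led by Trbv13-2 with 463 reads beside 321 reads of Trbv12-2. The median ratio of the second to the leading segment was 4.87% where the second lay next upstream in P6+ cells, 5.80% for such P6- cells and 30.3% for P6- cells whose second segment was not a neighbour. Near-equal pairs occurred in P6- cells, such as Trbv20 with Trbv16 (828 and 775 reads), Trbv13-2 with Trbv12-2 (1346 and 1255 reads) and Trbv13-2 with Trbv13-1 (1232 and 1050 reads).

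**Figure D3:**
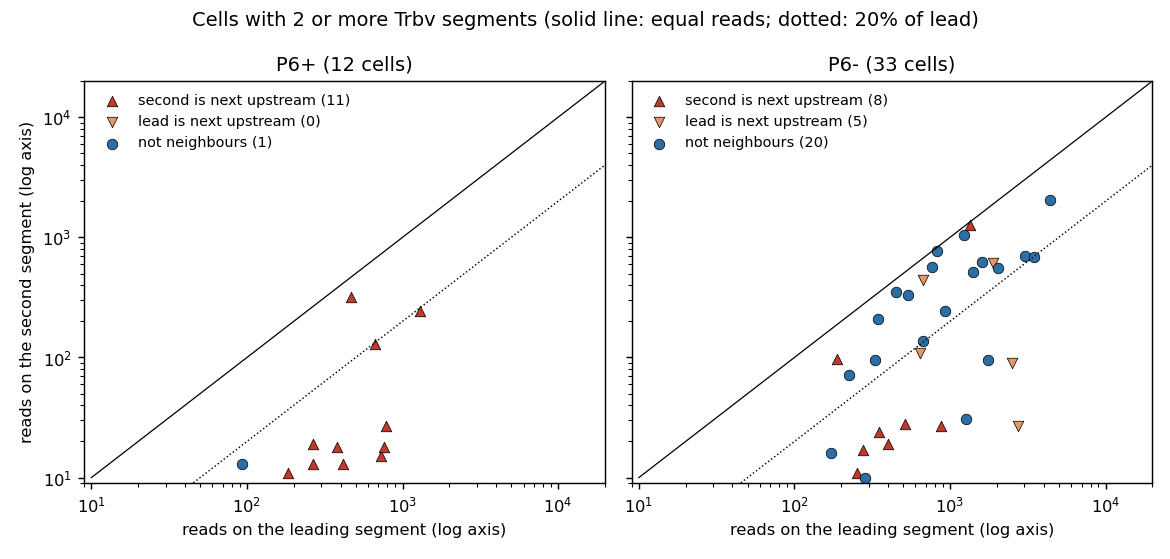
Reads on the second segment against reads on the leading segment (both axes log scaled) in the 12 P6+ and 33 P6- cells with at least 2 segments, marked by the position of the segments in the locus. In P6+ cells 11 of 12 points are upstream neighbours, most of them far below the dotted line at 20% of the leading segment, while in P6- cells 19 of 33 points lie at or above that line.

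Counted over both groups, Trbv12-2 stood beside another leading segment in 21 cells, Trbv13-2 in 7, Trbv4 in 5, and Trbv15 and Trbv12-1 in 3 each. Trbv13-2 beside another leading segment ranged from 27 to 705 reads, in P6- cells only. Trbv4 was low in each of its cells, with 10 to 95 reads. Trbv15 held 96, 542 and 610 reads and Trbv12-1 held 242, 353 and 621 reads. The cell with 542 reads of Trbv15 was led by Trbv17 with 3027 reads and also held 705 reads of Trbv13-2.

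The constant segments were read independently of the V call. A cell was placed by which of Trbc1 and Trbc2 reached 10 reads. All 16 P6+ cells led by Trbv13-2 held Trbc2 only (100%, 79.4 to 100%), with 502, 1019 and 4655 reads of Trbc2 and 0, 2 and 4 reads of Trbc1 at the lowest, median and highest. Of the 19 P6- cells led by Trbv13-2, 9 held Trbc2 only (47.4%, 24.4 to 71.1%), 9 held both and 1 held Trbc1 only. The intervals for Trbc2 only did not overlap between these groups of cells that used the same V segment. However, the study listed 1 Trbv13-2 junction for P6+ cells, so the 16 P6+ cells cannot be taken as independent joins.

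Among cells led by another segment, Trbc2 only was found in 8 of 11 P6+ (72.7%, 39 to 94%) and 35 of 84 P6- cells (41.7%, 31 to 52.9%), with overlapping intervals. The remaining 3 P6+ cells held both constant segments, and they were 2 of the 3 cells led by Trbv13-1 (1531 and 2201 reads of Trbc1) and 1 of the 4 led by Trbv2 (1186 reads). No called P6+ cell held Trbc1 only, against 7 called P6- cells. In the 8 called P6- cells of the same prefix, 4 held Trbc2 only and 4 held both. Summed over cells, Trbc1 was at 83.7 cpm in P6+ and 875 cpm in P6- cells, and Trbc2 at 888 and 1014 cpm. The coding parts of Trbc1 and Trbc2 are near-identical, so reads that match both are not assigned to either and the split between them is uncertain.

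**Figure D4:**
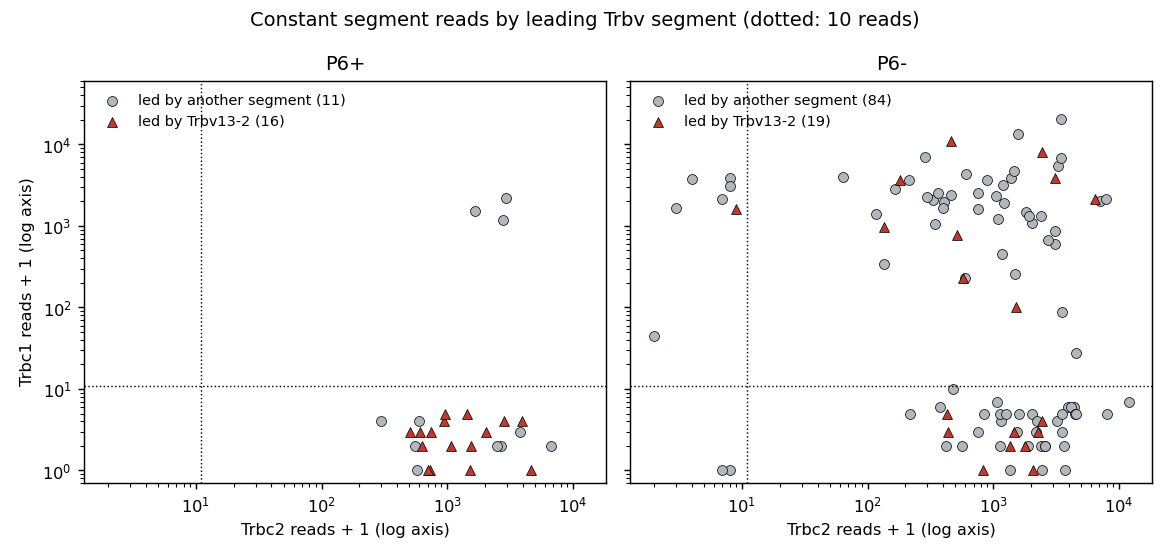
Reads of Trbc1 against reads of Trbc2, each plus 1 and on log axes, in called P6+ (left) and P6- cells (right), with triangles for cells led by Trbv13-2, circles for the others, and dotted lines at 10 reads. The 16 P6+ triangles lie below 5 reads of Trbc1, whereas 10 of the 19 P6- triangles lie above 10 reads.

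Reads on the J segments were sparse, because a J segment has about 50 bases and reads that also touch a V or constant segment are not counted. Trbj2-4 is shown whole because it was the J segment found throughout the Trbv13-2 cells of the P6+ group, and the last bases of the P6+ junction above come from its start.
Trbj2-4 (chr6:41543362-41543410, plus strand): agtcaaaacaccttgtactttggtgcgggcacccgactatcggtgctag

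At least 1 read of Trbj2-4 was present in all 16 P6+ cells led by Trbv13-2 (100%, 79.4 to 100%), with 3, 6 and 27 reads at the lowest, median and highest. It was present in 6 of the 19 P6- cells led by Trbv13-2 (31.6%, 12.6 to 56.6%), and these intervals did not overlap. The 16 P6+ cells are again not independent joins. Total depth was close in these P6+ and P6- cells, with medians of 1700549 and 1691472 reads. In cells not led by Trbv13-2, a Trbj2-4 read was present in 5 of 16 P6+ and 11 of 110 P6- cells (10%). Low counts of a segment that is abundant in other cells of a prefix occurred, so a single read is weak evidence for a cell, and the lowest of the 16 counts was 3 reads.

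At 10 reads a leading J segment could be called in 8 of these 16 P6+ cells. It was Trbj2-4 in 4 of them (50%, 15.7 to 84.3%), Trbj2-6 in 3 and Trbj2-7 in 1. The share depended on the minimum: Trbj2-4 led in 11 of 16 cells at 1 read, in 0 of 3 at 20 reads and in 0 of 2 at 50 reads. The highest counts were 162 reads of Trbj2-6, in a cell with Cd79b reads, and 271 reads of Trbj2-7, so the J segment with the most reads was not the one that all of the cells shared. In the 19 P6- cells a J segment was called in 6, of which 2 were Trbj2-1 and 1 each was Trbj1-2, Trbj1-3, Trbj2-4 and Trbj2-5.

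P6+ cells led by another segment had a leading J segment in 10 of 11 cells, most often Trbj2-7 (4 cells) and Trbj2-6 (2 cells), and Trbj2-4 reached 10 reads in 3 of them without leading. Single cells held many J segments at 10 reads, with 7 in the Trbv29-led cell and 6 in a Trbv3-led cell. The J segment with the most reads therefore need not be the joined one. Both cells led by Trbv3 and 2 of the 3 led by Trbv13-1 had Trbj2-7 leading, with 12 to 181 reads, and the last Trbv13-1 cell had Trbj2-3 with 95 reads. The 4 cells led by Trbv2 had Trbj2-6 in 2 (42 and 96 reads), Trbj2-5 in 1 (18 reads) and Trbj1-6 in 1 (42 reads), and the Trbj1-6 cell was the Trbv2 cell with Trbc1 reads. The cell led by Trbv29 had Trbj1-4 with 262 reads, but 3 reads of Trbc1. Cells that shared a leading V segment among the Trbv2 and Trbv13-1 cells thus did not all share a leading J segment. For Trbv2 this does not show different joins, since the only P6+ junction listed by the study joins it to Trbj2-4. The P6+ junctions listed for Trbv13-1 join it to Trbj1-5 and Trbj2-7.

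Cells without a called V segment were examined for receptor transcripts. The 5 uncalled P6+ cells had 1 or 2 reads on their highest segment, and 3 of them held at least 10 reads of the constant segments. The 26 uncalled P6- cells had 0 to 5 reads on the highest segment, and 15 of them (57.7%, 36.9 to 76.6%) held at least 10 constant segment reads. In called cells this was so in 27 of 27 P6+ cells and all but 2 of the P6- cells. Uncalled P6+ cells were not shallower than called ones, with median depths of 1931970 and 1709903 reads, and the medians in P6- cells were 1437363 and 1554009 reads.

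Foxp3, the factor that defines regulatory T cells, reached 10 reads in 9 of the 16 P6+ cells led by Trbv13-2 (56.3%, 29.9 to 80.2%), in 2 of the 11 P6+ cells led by another segment (18.2%, 2.28 to 51.8%), in 4 of the 19 P6- cells led by Trbv13-2 (21.1%, 6.05 to 45.6%) and in 11 of the 84 P6- cells led by another segment (13.1%, 6.72 to 22.2%). The first of these intervals overlapped those of the Trbv13-2-led P6- cells and of the other P6+ cells, but not that of the other P6- cells.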

How the data were processed

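Single CD4 T cells were sequenced by Smart-Seq2, with paired reads. The authors mapped the reads with STAR 2.6.0a to GRCm38, checked them with FastQC 0.11.7, handled alignments with SAMtools 0.1.19 and deposited the raw counts of 176 cells, not normalized, together with a table of the tetramer sign, which matched the label of each cell. STAR's gene counting leaves out reads that match several places or genes, which lowers V, J and constant segments that share reads.

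Repeated gene names were averaged, of which none was a Trb name. Cells were kept from 500000 reads and 2000 genes upward and below 10% mitochondrial reads, the limits given in the methods. Reads here were those counted on genes. A further filter of the methods, on the mapping rate, was not used here, and no doublet caller was run, since wells received 1 sorted cell. The leading segment was the Trbv row with the most reads, at 10 reads or more. Sums over cells were divided by their total (cpm), with no test, since cells are not replicates and no second animal is named. Segments were placed by GENCODE annotation of GRCm38 (release M21), and germline sequences were read from its transcripts, while junction sequences were read from the study's list of productive beta chains. The members and the lists were chosen with earlier results of these data known.

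Values were given for each segment that led at least 1 P6+ or 5 P6- cells or stood at 10 reads beside another in 3 cells, for the Trbj segments leading Trbv13-2 cells, and for Trbc, Trbd, Rag1, Rag2, Dntt and Ptcra. On simulated data, the leading segment and the number of segments were right in 161 of 161 cells, and over 53546 genes the pooled ratio of P6+ over P6- cells had the right direction for 100 of 100 genes changed 2-fold and 100 of 100 changed 4-fold. Simulated background stayed below 10 reads and each simulated leading segment lay well above it, so the calls could not fail. They check the code only, and close copies and near-equal pairs were not simulated. Alternatives changed the read minimum, the filters, the depth, the P6- cells, the treatment of segment families, the pseudocount and the normalization. Tools were Python 3.11.15, numpy 2.4.6, pandas 2.3.3, scipy 1.17.1, matplotlib 3.10.9, R 4.3.3, edgeR 4.0.16 and DESeq2 1.42.0, the last 2 for scaling factors only. The results for 2 genes are not reported here.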

Additional observations from a re-analysis of the deposited data

How the results depend on the processing

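Of the recomputed values, 24 left the interval of the value reported or moved by over 1.5 times, and the others did not. The share of called cells led by Trbv13-2 lay between 50% and 66.7% in P6+ cells under the alternatives run on single segments, and between 15.1% and 25% in P6- cells, except for 0 of 8 with the same prefix as the P6+ cells. With families summed, the whole Trbv13 family led 70.4% of P6+ and 25.2% of P6- cells.

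The P6- cells of that prefix also gave 6 leading segments and 9.09% of cells with at least 2 segments, a pooled log2 ratio of 6.26 for Trbv13-2, and 4 segments higher and 6 lower past 1, of 11, where 52.7% of all genes were higher and 20.5% lower. Against all P6- cells, the ratio of Trbv13-2 was 0.57 with each cell weighted alike, and 0.66 or 0.97 without the P6+ or the P6- cell that held most of its reads. With that P6+ cell left out for each segment, 0 segments were higher past 1. A minimum of 1 read called a segment in 100% of P6+ and 97.7% of P6- cells and gave at least 2 segments in 93.8% and 78.3%. At least 2 segments were held by 12.5% of P6+ cells at 20 reads, by 9.38% of P6+ and 17.8% of P6- cells at 50 reads, and by 9.38% of P6+ cells thinned to 500000 reads. Requiring 4000 genes gave 13 leading segments in P6- cells and a call in 92.3% of them. Trbj2-4 led 0 of 3 P6+ cells at 20 reads and 0 of 2 at 50 reads, and 0 of 1 P6- cell at 50 reads.

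Without the 2 P6+ cells with Cd79b reads the pooled log2 ratio of Trbv13-2 was 0.70, that of Trbv12-2 was -2.02 (10.8 cpm in P6+ cells), and Trbv12-2 led 0 P6+ cells. In the P6+ cells left, Trbv13-2-led cells had Trbc2 only and a Trbj2-4 read in 15 of 15, Trbj2-4 led in 4 of 7, and Foxp3 was found in 8 of 15, against 1 of 10 cells led by another segment (10%). This alternative, the other limits on the second segment and those without a segment's top cell were chosen after the data were seen. No paired analysis was possible because no second animal is named and the numbers in cell names are not shared replicates. The J segments were not recomputed at thinned depth. Shares rest on at most 32 P6+ cells.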

Other observations

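The D and J segments lie in 2 clusters. Summed over cells, Trbj1 segments held 36.2% of the 3222 Trbj reads of P6+ cells and 75.4% of the 18977 Trbj reads of P6- cells. These are shares of counted reads, not of joined segments. A single P6+ cell, led by Trbv29, held 1071 of the 1165 Trbj1 reads of P6+ cells, and without it the P6+ share was 4.37%. All 14 Trbj segments passed the minimum for a ratio. Of the 7 Trbj1 segments 6 were lower in P6+ by at least 1 on the log2 scale and 0 were higher, while of the 7 Trbj2 segments 2 were higher, Trbj2-6 (10.2 against 1.54 cpm) and Trbj2-7 (12.4 against 4.58 cpm), and 1 was lower, Trbj2-1 (0.152 against 11.5 cpm). Over all genes, 35% were lower and 21.1% higher by this measure. Without the Trbv29-led cell, 7 Trbj1 segments were lower and 3 Trbj2 segments higher. These counts moved with single cells. With the P6+ cell that held most reads of each segment left out, Trbj2-6 alone of the Trbj2 segments was higher (log2 ratio 1.81), while Trbj2-7, with 271 of its 737 P6+ reads in 1 cell, was at 8.21 cpm (0.72). With the top P6- cell of each left out, 3 Trbj1 segments were lower and 5 Trbj2 segments higher. Trbj2-6 is annotated as a pseudogene in GRCm38. Trbd1 was at 0.607 against 5.18 cpm and Trbd2 at 2.24 against 4.34 cpm. The sums rest on few cells, with up to 1477 reads of Trbj1-5 in a single P6- cell, and no test was made.

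Genes of the recombination machinery had almost no reads in either group. Rag1 had 1 read in all P6- cells and 0 in P6+ cells, and Rag2, Dntt (terminal transferase) and Ptcra (the surrogate alpha chain of early thymocytes) had 0 reads in both.

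Of the 267 Trbv values between 1 and 9 reads, 199 were single reads, and for 178 (66.7%) another cell of the same prefix held at least 10 reads of the same segment. Of the 15 P6- cells outside the quality filters, 1 had a called segment and 0 were led by Trbv13-2.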
